A study of Mus musculus with 6 samples.

Results

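The genes described here are 51 transcription factor genes of limbic and hypothalamic neurons, the nuclear factor I (NFI) family included, out of 21887 protein-coding genes on the assembled mouse chromosomes. They were chosen by name. Each peak inside a gene's RefSeq span, or within 100 kb of it where that gene was the nearest protein-coding gene, was assigned to the gene. All 51 names matched the annotation. The peaks are of estrogen receptor alpha (ERα), mapped by CUT&RUN. That assay directs a nuclease to an antibody on the bound protein and sequences the short DNA fragments it cuts free. The donors of the limbic nuclei were C57/BL6 males without testes, gonadectomized at 10 to 12 weeks of age in both groups. Treatment followed 3 weeks later, and nuclei were isolated 4 hours after it. The estradiol group (3 libraries) received 5 µg estradiol benzoate under the skin, and the vehicle group (3 libraries) corn oil. The labels of replicate 3 of both groups give the treatment in the title alone and carry no strain tag. They do not say whether libraries came from separate animals or from pools, so the spread between libraries may be technical. Tissue of this kind mixes many cell types, and in such bulk samples fewer cells with a bound site and less binding per cell cannot be told apart.

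The members are DNA-binding regulators, or in the case of the LMO proteins cofactors of such regulators, that give neurons their regional and class identity. NFI proteins bind the palindrome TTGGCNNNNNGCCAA as dimers and act in the maturation of neurons and glia. ERα binds estrogen response elements, GGTCA and TGACC arms spaced by 3 bases, and also reaches chromatin through other factors. In the hypothalamus, amygdala and related nuclei, ERα marks neurons that govern reproductive, social and metabolic behavior. Some members are known for those regions: Otp, Nkx2-1 and Tbx3 for the hypothalamus, Tbr1, Fezf2 and the Neurod genes for glutamatergic forebrain neurons, and Isl1, Lhx8 and Foxp2 for GABAergic or cholinergic groups.

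Peaks were sorted into gene-end peaks, within 1000 bp of either end of the member's span, and distal peaks, which lay inside the gene or outside it but farther than 1000 bp from both ends. The lists held 5421, 13717 and 20541 peaks in vehicle replicates 1, 2 and 3 and 11082, 14123 and 17558 in estradiol replicates 1, 2 and 3. The number of fragments at a summit was estimated from the authors' fold enrichment and p-value. It was not scaled for library depth. The smallest called summit held 4 fragments in every library and the median 6, so the lack of a peak does not show the lack of binding. Peak lists do not measure expression, so the tissue label could be set only against where peaks lay. Of neuron marker genes, 11 of 11 had a distal peak in at least 1 library. The counts were 5 of 8 for astrocytes, 9 of 9 for oligodendrocytes, 4 of 7 for microglia, 6 of 6 for endothelium, 2 of 5 for ependyma and choroid plexus and 1 of 8 for other organs, beside 42% of all genes. In all 6 libraries a distal peak was found for 0 of 11 neuron markers, 3 of 9 oligodendrocyte markers, 1 of 6 endothelial markers and 0 of the other lists (4.84% of all genes). Of neuron, astrocyte and oligodendrocyte markers, 7 of 11, 5 of 8 and 5 of 9 had a gene-end peak in at least 1 library. The gene-end counts were 0 of 7 for microglia, 0 of 6 for endothelium, 3 of 5 for ependyma and choroid plexus and 1 of 8 for other organs. Over all genes the share was 37.7%. Gene-end peaks in all 6 libraries were found for 1 of 11 neuron markers and 0 of the other lists (9.39% of all genes).

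For 5 members a region held by at least 3 libraries covered 30 bases or more of the 250 bases before a RefSeq start site. These promoters are printed because they show where the peaks at listed starts lay. The Myt1l start printed lies inside the gene's span, so its peaks count as distal here. Sequences are from RefSeq on GRCm38.p6, whose chromosomes have the coordinates of mm10. They read 5′ to 3′ on the gene's strand, capitals mark the bases under the merged peaks, and the last base is the one before the start site. Pou3f3 and Pou3f2 encode POU-domain factors of upper-layer and hypothalamic neurons, Sox11 and Sox4 are SOX factors of newborn neurons, and Myt1l is a zinc finger factor that represses non-neuronal genes.
Pou3f3: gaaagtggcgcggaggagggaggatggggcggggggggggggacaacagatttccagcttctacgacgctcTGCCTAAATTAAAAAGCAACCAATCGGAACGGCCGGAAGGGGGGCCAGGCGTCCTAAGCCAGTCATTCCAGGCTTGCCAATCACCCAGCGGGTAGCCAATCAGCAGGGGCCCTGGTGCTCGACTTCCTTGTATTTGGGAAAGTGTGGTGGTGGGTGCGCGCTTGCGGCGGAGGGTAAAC
Pou3f2: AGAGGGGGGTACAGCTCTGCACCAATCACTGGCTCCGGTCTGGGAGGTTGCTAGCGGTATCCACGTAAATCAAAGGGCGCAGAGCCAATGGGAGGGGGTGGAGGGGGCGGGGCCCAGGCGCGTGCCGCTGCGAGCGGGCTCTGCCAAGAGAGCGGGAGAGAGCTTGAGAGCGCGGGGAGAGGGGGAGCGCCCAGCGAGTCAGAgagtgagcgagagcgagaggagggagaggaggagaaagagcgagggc
Sox11: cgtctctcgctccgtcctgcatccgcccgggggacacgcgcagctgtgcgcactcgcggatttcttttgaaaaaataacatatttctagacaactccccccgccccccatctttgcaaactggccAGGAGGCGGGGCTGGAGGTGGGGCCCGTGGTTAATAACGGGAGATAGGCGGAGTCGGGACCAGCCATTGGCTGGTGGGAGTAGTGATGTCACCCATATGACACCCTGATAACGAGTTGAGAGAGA
Sox4: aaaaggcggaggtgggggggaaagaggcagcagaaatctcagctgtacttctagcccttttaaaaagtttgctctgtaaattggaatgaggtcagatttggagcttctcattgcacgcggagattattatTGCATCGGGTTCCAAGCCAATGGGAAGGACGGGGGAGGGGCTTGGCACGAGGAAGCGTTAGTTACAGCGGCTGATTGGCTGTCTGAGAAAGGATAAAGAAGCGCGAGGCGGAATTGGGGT
Myt1l: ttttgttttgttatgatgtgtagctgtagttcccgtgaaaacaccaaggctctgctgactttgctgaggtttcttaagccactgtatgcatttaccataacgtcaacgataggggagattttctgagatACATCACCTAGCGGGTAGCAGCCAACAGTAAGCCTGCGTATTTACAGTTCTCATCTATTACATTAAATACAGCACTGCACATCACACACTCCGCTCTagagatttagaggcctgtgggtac
The windows are, in the same order, chr1:42695518-42695767 (plus strand), chr4:22488367-22488616 (minus strand), chr12:27342719-27342968 (minus strand), chr13:28953700-28953949 (minus strand) and chr12:29534352-29534601 (plus strand). The regions were held by 2 vehicle and 3 estradiol libraries at Pou3f3, Pou3f2 and Sox11, by 2 and 2 at Sox4, and by 2 and 1 at Myt1l.

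Motifs were searched on both strands in the 300-base windows of the RefSeq table, from 250 bases before to 50 after each start. Of the members, 43 had 68 such windows, and 8 had none in the table (Foxp2, Nfib, Onecut2, Pbx3, Tbx3, Tcf4, Tshz1 and Zfhx4). Distal regions away from these windows, where most member peaks lay, were not searched. The estrogen response element GGTCANNNTGACC was in 0 of 68 member windows and in 23 of 32851 windows of all genes (0.0700%). With so rare a match, 0 of 68 says little about the members. A single arm, GGTCA or TGACC, was in 20 of 68 (29.4%) against 40.5% of all windows. The full NFI palindrome was in 0 of 68 member windows and in 12 of 32851 windows of all genes (0.0365%). An NFI arm, TTGGC or GCCAA, was in 33 of 68 (48.5%) against 46.7%. Among windows that touched a peak, an estrogen response element arm was in 4 of 13 member windows (30.8%) against 36.5% over all genes. An NFI arm was in 9 of those 13 (69.2%) against 54.8% over all genes. The letters CCAA of that arm are shared with the CCAAT box, so a match can be either. Each of the 5 printed sequences held an NFI arm inside the capitals: 2 in Pou3f3, 2 in Pou3f2, 1 in Sox11, 3 in Sox4 and 1 in Myt1l. In Sox4 the arms lay at -105 to -101, -79 to -75 and -46 to -42 from the start site. Of these Sox4 arms, the first and the last also complete CCAAT or its reverse complement, ATTGG. So do both arms in Pou3f3, the Sox11 arm and the Pou3f2 arm at -167 to -163. An estrogen response element arm was found in Sox4 alone of the 5, at -161 to -157, outside the capitals. The GC box GGGCGG or CCGCCC was in 32 of 68 member windows (47.1%) and in 35.7% of all. The AP-1 site TGAGTCA or TGACTCA was in 2 of 68 (2.94%) against 5.20% of all windows. Among windows that touched a peak, AP-1 was in 0 of 13 against 2.63%, and the GC box in 8 of 13 (61.5%) against 67.4%. Member windows that touched a peak were richer in CpG, with a median of 24 per window (n = 13) against 10 in those without (n = 55). Over all genes the medians were 22 and 5, and 24.5% of windows touched a peak, against 19.1% of the members' windows.

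The first question was which of these genes carried peaks at their ends and which away from them. Most peaks of the members were distal: 423 of 486 (87.0%), against 57.4% over all protein-coding genes. A gene-end peak in at least 1 library was found for 19 of 51 members (37.7% of all genes), and a distal peak for 40 of 51 (42% of all genes). There were 22 members with distal peaks alone (24% of all genes), 18 with both kinds, and Onecut2 with gene-end peaks alone. Gene-end peaks in all 6 libraries were found for 2 members, Lmo4 and Pou3f2 (9.39% of all genes), and distal peaks in all 6 for 11 (4.84% of all genes). The gene-end count was 5 without vehicle replicate 1 and 0 with lists of equal length, and the distal count was 7 with lists of equal length. The 11 with distal peaks were Nfia, Nfic, Nfix, Myt1l, Zfhx3, Tshz2, Mef2c, Mef2d, Sox2, Sox5 and Rfx3, and they held 292 of the 423 distal peaks (69.0%). The members' median territory, the span plus its flanks, was 205 kb against 45.8 kb for all genes, and 3 of the 51 had a smaller territory than the latter. Their median span was 75.4 kb against 17.2 kb, with 17 of the 51 below that of all genes. Per Mb of that territory, the members had 29.8 distal peaks over the 6 libraries and all genes 23.0. By family the densest were the MYT1 genes with 100.1, the MEF2 genes with 76.4 and the NFI genes with 66.4. Within the NFI family the values ran from 16.8 at Nfib and 44.5 at Nfia to 232 at Nfix and 461 at Nfic.

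**Figure D1:**
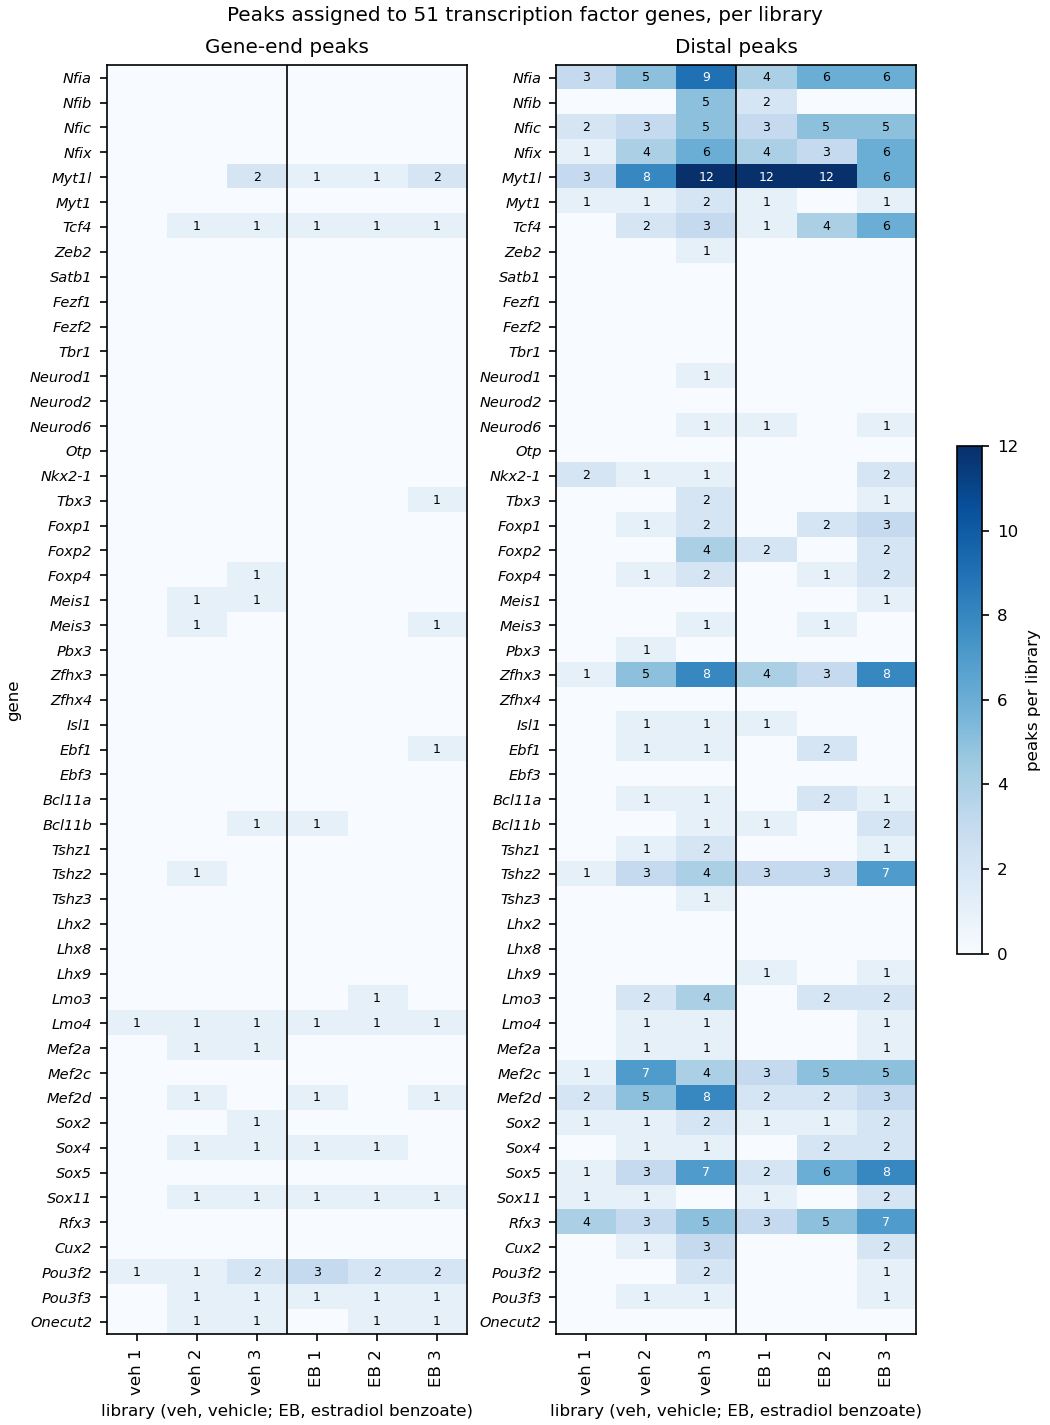
Number of gene-end peaks (left) and distal peaks (right) assigned to each of the 51 genes (rows) in the 3 vehicle and 3 estradiol benzoate libraries (columns); empty cells are 0. Gene-end peaks recur at Lmo4 and Pou3f2, and distal peaks gather in a few rows, with Myt1l reaching 12 in a library.

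Some annotated spans reach past the start sites listed in the promoter table. For 14 of the 43 members with a listed start, every listed start lay farther than 1 kb from both ends of the span. Counting listed starts as gene ends, a setting added after the data were seen, gave 4 members with such a peak in all 6 libraries (10.3% of all genes) and 10 with a distal peak in all 6 (3.82% of all genes). The distal share of member peaks was then 81.3%, against 52.6% over all genes.

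Among the NFI genes, Nfia, Nfic and Nfix had distal peaks in every library, and Nfib did not. Nfia (chromosome 4, 97578066 to 98118876 on mm10) had 3, 5 and 9 distal peaks under vehicle and 4, 6 and 6 under estradiol. The groups overlapped. Of its 15 regions, merged from overlapping peaks of the 6 lists, 2 were held by all 6 libraries and 9 by a single one. The strongest, at 97773270 to 97773467, lay inside the gene, 191 kb from the listed start and within 1 kb of the lncRNA gene Gm38709. It had 15, 24 and 44 summit fragments under vehicle (replicates 1, 2 and 3, the order used throughout) and 18, 25 and 41 under estradiol. Its authors' −log10 q was at the 90.6 to 98.1 percentile of each list. The second, at 97772226 to 97772493, lay 776 bp away and had 8, 12 and 35 fragments against 18, 19 and 24. Both pairs of groups overlapped, and within each group replicate 3 was highest at both sites. No peak of any library lay at the ends of the Nfia span or within 1 kb of its listed start.

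Nfic (chromosome 10, 81396191 to 81431919) had 2, 3 and 5 distal peaks under vehicle and 3, 5 and 5 under estradiol. A region at 81432984 to 81433155, 1065 bp beyond the end of the span, had 5, 12 and 45 fragments under vehicle and 13, 22 and 31 under estradiol. It spans the widest range among regions held by all 6, with both extremes in the vehicle group. Its neighbour at 81435639 to 81435725, 3.72 kb from the gene, varied little, with 9, 9 and 10 against 8, 6 and 8. There every estradiol fragment count was below every vehicle count, by 1 to 4 fragments. By fragments it was the one case among the 11 member regions held by all 6 libraries (0.838% of all such regions). The authors' fold overlapped there, with 7.54, 7.23 and 6.02 under vehicle against 6.68, 4.92 and 5.71 under estradiol. Its −log10 q overlapped too, with 6.97, 6.86 and 5.22 against 5.79, 2.98 and 4.28. In 0 of the 11 was every estradiol fragment count above every vehicle count (1.01% of all such regions). Other measures can differ, as at the inner Myt1l region below. Inside the gene, a region at 81413981 to 81414091 had 5 and 18 fragments in vehicle replicates 2 and 3 and 4, 4 and 12 in the estradiol libraries.

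Nfix (chromosome 8, 84704712 to 84801238), which acts in neural stem cells and in neuron maturation, had 1, 4 and 6 distal peaks under vehicle and 4, 3 and 6 under estradiol. Its region held by all 6, at 84773904 to 84774152, lay 494 bp from a listed start inside the span. It had 11, 12 and 16 fragments under vehicle and 19, 9 and 23 under estradiol, with overlap. Just beside it, 84774459 to 84774690 held a peak in vehicle replicate 3 and all 3 estradiol libraries, and 84774794 to 84774899 in vehicle replicates 2 and 3 and all 3 estradiol libraries. Nfib (chromosome 4, 82290173 to 82506751) had 5 peaks in vehicle replicate 3, 2 in estradiol replicate 1 and 0 in the other 4 libraries. None of the Nfib peaks had over 5 fragments.

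**Figure D2:**
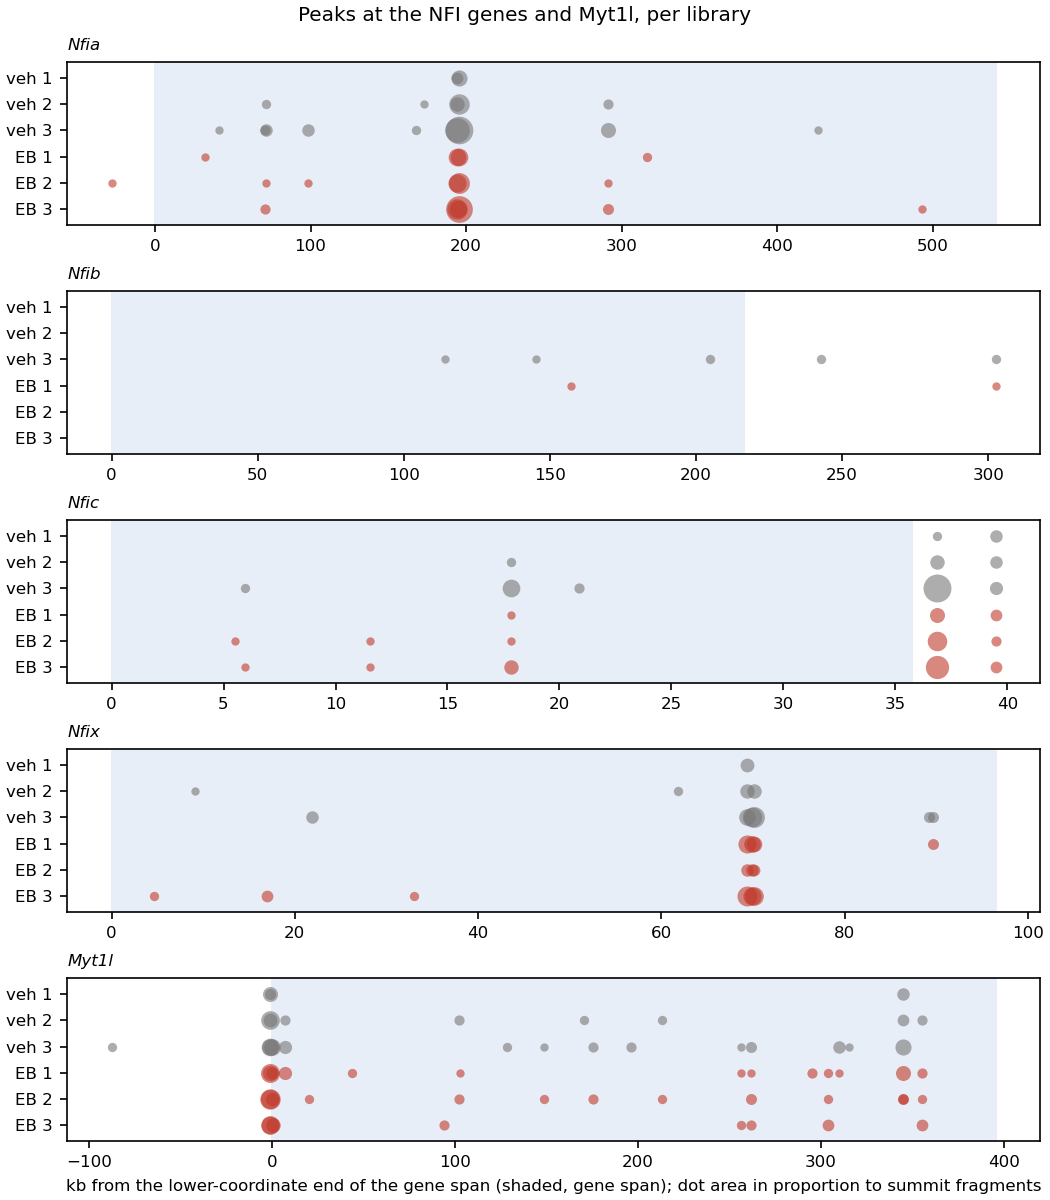
Peaks at Nfia, Nfib, Nfic, Nfix and Myt1l in each library (rows; veh, vehicle; EB, estradiol benzoate), by distance in kb from the lower-coordinate end of the gene span (shaded); the area of a dot is in proportion to the summit fragments. At Nfia, Nfic, Nfix and Myt1l the largest dots stand in the same place in both groups, and Nfib has small dots in 2 libraries.

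Myt1l (chromosome 12, 29527590 to 29923216) had the most distal peaks of the 51 members. There were 3, 8 and 12 under vehicle and 12, 12 and 6 under estradiol, spread over 26 regions of both kinds. The groups overlapped. A pair of regions just before the lower end of the span was held by all 6 libraries. The outer one, at 29526288 to 29526404, had 13, 20 and 18 fragments under vehicle and 21, 24 and 20 under estradiol. The inner one, at 29526497 to 29526683 and 92 bp away, had 7, 11 and 16 against 14, 21 and 18. The authors' fold at the inner one was 5.06, 5.89 and 6.44 under vehicle and 7.28, 11.3 and 7.66 under estradiol. Its −log10 q was 2.72, 5.07 and 7.73 against 7.9, 17.2 and 10.3. By these measures every estradiol value was above every vehicle value, though the fragments overlapped. How many regions of all genes separate by fold or q was not counted. The lowest fragment count of both regions was that of vehicle replicate 1, the shortest list. Both lay within 1 kb of the lncRNA gene Gm20208. The merged inner region reaches to 907 bp from the span, but single peaks in it can be farther than 1 kb, so the gene does not count among those with a gene-end peak in all 6 libraries. Its paralog Myt1 had 1, 1 and 2 distal peaks against 1, 0 and 1.

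The MEF2 genes encode activity-dependent regulators of synapse number. Mef2c had 1, 7 and 4 distal peaks under vehicle and 3, 5 and 5 under estradiol, and Mef2d had 2, 5 and 8 against 2, 2 and 3. Mef2a had 0, 1 and 1 against 0, 0 and 1. The Mef2d region at 88178058 to 88178241 on chromosome 3, 5.97 kb from the gene, lay at the listed start of the lncRNA gene 1700113A16Rik. It had 11, 10 and 14 fragments under vehicle and 10, 16 and 16 under estradiol. The Mef2c region at 83744971 to 83745199 on chromosome 13, 77.9 kb from the gene, had 9, 8 and 13 against 6, 9 and 9. Neither region separated the groups.

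Rfx3, a regulator of cilia genes, had 4, 3 and 5 distal peaks under vehicle and 3, 5 and 7 under estradiol. A pair of its regions lay within 1 kb of the listed start, 3503 bp inside the upper end of the span. The one at 28011491 to 28011698 on chromosome 19 had 7, 13 and 21 fragments against 6, 12 and 18. The one at 28011087 to 28011144 had 10, 8 and 13 fragments in the vehicle libraries, none in estradiol replicates 1 and 2, and 15 in estradiol replicate 3.

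Pou3f2, Pou3f3, Sox11 and Sox4 had peaks at their starts. Pou3f2 had 1, 1 and 2 gene-end peaks under vehicle and 3, 2 and 2 under estradiol, in 2 neighbouring regions. Pou3f3 had 1 gene-end peak in every library except vehicle replicate 1, with 8 and 25 fragments in vehicle replicates 2 and 3 and 8, 6 and 17 in the estradiol libraries. Sox11 had the same pattern, with 6 and 16 fragments against 6, 5 and 5. The Sox4 start was held by vehicle replicates 2 and 3 (7 and 16 fragments) and estradiol replicates 1 and 2 (8 and 6 fragments). Tcf4, an E-protein that pairs with proneural factors, had a gene-end peak with 11 and 14 fragments in vehicle replicates 2 and 3 and 8, 12 and 13 in the estradiol libraries. Lmo4, a LIM-domain cofactor, had 1 gene-end peak in each library, 245 bp beyond the upper end of its span. That peak had 7, 6 and 24 fragments under vehicle and 9, 5 and 17 under estradiol. At these gene ends vehicle replicate 1 lacked a peak in 4 of the genes (Pou3f3, Sox11, Sox4 and Tcf4).

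**Figure D3:**
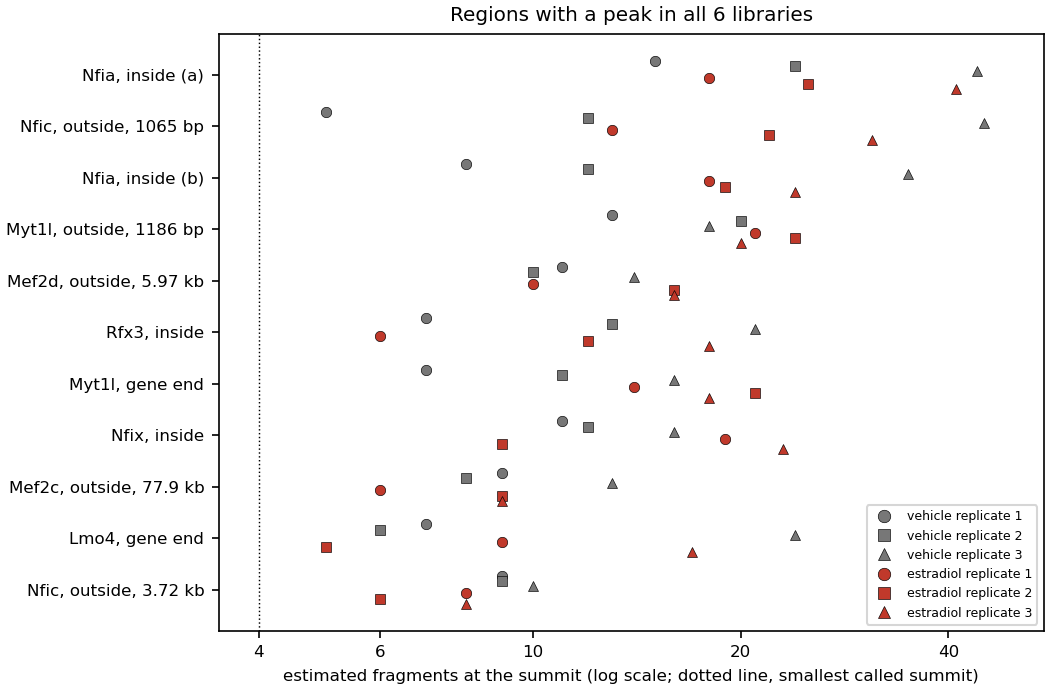
Estimated summit fragments (log axis) in each library for the 11 member regions with a peak in all 6 libraries, ordered by median −log10 q; labels give the gene, the place and, outside the gene, the distance. Values run from 5 to 45 and are not scaled for library depth, and vehicle and estradiol points overlap in 10 of the 11 regions.

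Other long genes had many peaks that recurred in fewer libraries. Zfhx3, a large homeodomain and zinc finger factor, had 1, 5 and 8 distal peaks under vehicle and 4, 3 and 8 under estradiol, over 14 regions with none in all 6. Sox5, a SOX factor of deep-layer projection neurons, had 1, 3 and 7 against 2, 6 and 8. Tshz2 had 1, 3 and 4 against 3, 3 and 7. Foxp1 had 0, 1 and 2 against 0, 2 and 3, and Foxp2 had 0, 0 and 4 against 2, 0 and 2. Per Mb of territory these FOXP genes had 10.7 and 11.2 distal peaks, below the 29.8 of all members together. The forebrain regulators Bcl11a and Bcl11b had 5 and 4 distal peaks over all 6 libraries. Lmo3, a LIM-domain cofactor like Lmo4, had 0, 2 and 4 distal peaks under vehicle and 0, 2 and 2 under estradiol. Sox2, a factor of neural stem cells, had 1, 1 and 2 in both groups, and its most recurrent region, 10.6 kb from the gene and within 1 kb of Sox2ot, held peaks in 4 libraries. The remaining members with peaks had few. Cux2 had 6 distal peaks over the 6 libraries, Foxp4 6, Ebf1 4, Tshz1 4, Meis3 2, Lhx9 2 and Meis1 1. Onecut2 had a gene-end peak of 5 fragments in replicates 2 and 3 of both groups.

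No peak in any list was assigned to 10 of the 51 members (38.3% of all genes). They were Satb1, Fezf1, Fezf2, Tbr1, Neurod2, Otp, Zfhx4, Ebf3, Lhx2 and Lhx8, which lay in territories of 27.9 to 370 kb. Among them are Satb1, a chromatin organizer, and selectors of cortical (Fezf2, Tbr1), hypothalamic (Otp) and basal forebrain (Lhx8) neurons. Of the remaining glutamatergic factors, Neurod1 had 1 peak and Neurod6 had 3 over the 6 libraries. Of the hypothalamic factors, Nkx2-1 had 2, 1 and 1 distal peaks under vehicle and 0, 0 and 2 under estradiol. Tbx3 had peaks in vehicle replicate 3 and estradiol replicate 3 alone. Isl1, a LIM-homeodomain factor of hypothalamic and striatal neurons, had 0, 1 and 1 against 1, 0 and 0. Zeb2, Tshz3 and Pbx3 had 1 peak each, of 4 fragments.

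The study's main comparison is estradiol against vehicle. Counted by lists with a gene-end peak, 6 members had as many estradiol as vehicle lists (16.3% of all genes), 8 had more estradiol lists (12.6% of all genes) and 5 more vehicle lists (8.72% of all genes). As shares of the 51 these were 11.8%, 15.7% and 9.8%. For distal peaks 21 members had as many of both (41.2%, against 13.9% of all genes). More estradiol lists were found for 6 (11.8% against 15.3%) and more vehicle lists for 13 (25.5% against 12.8%). Those shares include genes without a distal peak, and 40 of 51 members had one, against 42% of all genes. Among genes with a distal peak, 13 of 40 members and 2799 of 9195 genes had more vehicle lists. More estradiol lists were found for 6 of 40 against 3344 of 9195, and as many of both for 21 of 40 against 3052 of 9195. For 0 of 51 members was the number of distal peaks higher, or lower, in every estradiol than in every vehicle library. Over all genes 0.461% were higher and 0.146% lower. For gene-end peaks the member count was also 0, with 0.279% of all genes higher and 0.0594% lower. Distal peaks in 1 group alone were found for 6 members (11.8%, against 15% of all genes), in at most 2 libraries. Among genes with a distal peak this was 6 of 40 against 3291 of 9195. The members held 0.480%, 0.569% and 0.633% of all peaks under vehicle and 0.568%, 0.545% and 0.638% under estradiol. The means were 0.560% ± 0.0770 and 0.584% ± 0.0482 (SD, n = 3 each), and the difference of 0.0235 percentage points was smaller than the spread. It was 0.0327 within replicates 1 and 2 and 0.00501 in replicate 3. It turned to -0.0123 with lists of equal length, -0.0169 without vehicle replicate 1 and -0.00353 without estradiol replicate 3.

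Their share of each library's distal peaks was 0.885%, 0.804% and 0.859% under vehicle and 0.815%, 0.810% and 0.841% under estradiol. The means were 0.849% ± 0.0413 under vehicle and 0.822% ± 0.0169 under estradiol (SD, n = 3 each), and the groups overlapped. The difference in this share was -0.0275 percentage points. Replicates 1 and 2 gave -0.0322 and replicate 3 gave -0.0183. A gene-end peak was found for 2, 12 and 13 members under vehicle and for 9, 9 and 11 under estradiol. The mean difference was 0.667 members, 2 within replicates 1 and 2 and -2 in replicate 3, and it turned to -2.83 without vehicle replicate 1. A distal peak was found for 14, 28 and 36 members against 20, 19 and 32, a mean difference of -2.33. It was -1.5 within replicates 1 and 2, -4 in replicate 3, 2.67 without vehicle replicate 3, -8.33 without vehicle replicate 1 and -6.5 without estradiol replicate 3. With 3 libraries a side an exact permutation test cannot go below p = 0.1, and since the members were chosen with earlier results known no p is given for these sums. The numbers of members with a peak were lowest in vehicle replicate 1 and highest in vehicle replicate 3, the shortest and the longest list. The part of list length in these counts was not tested apart from the setting with lists of equal length.

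**Figure D4:**
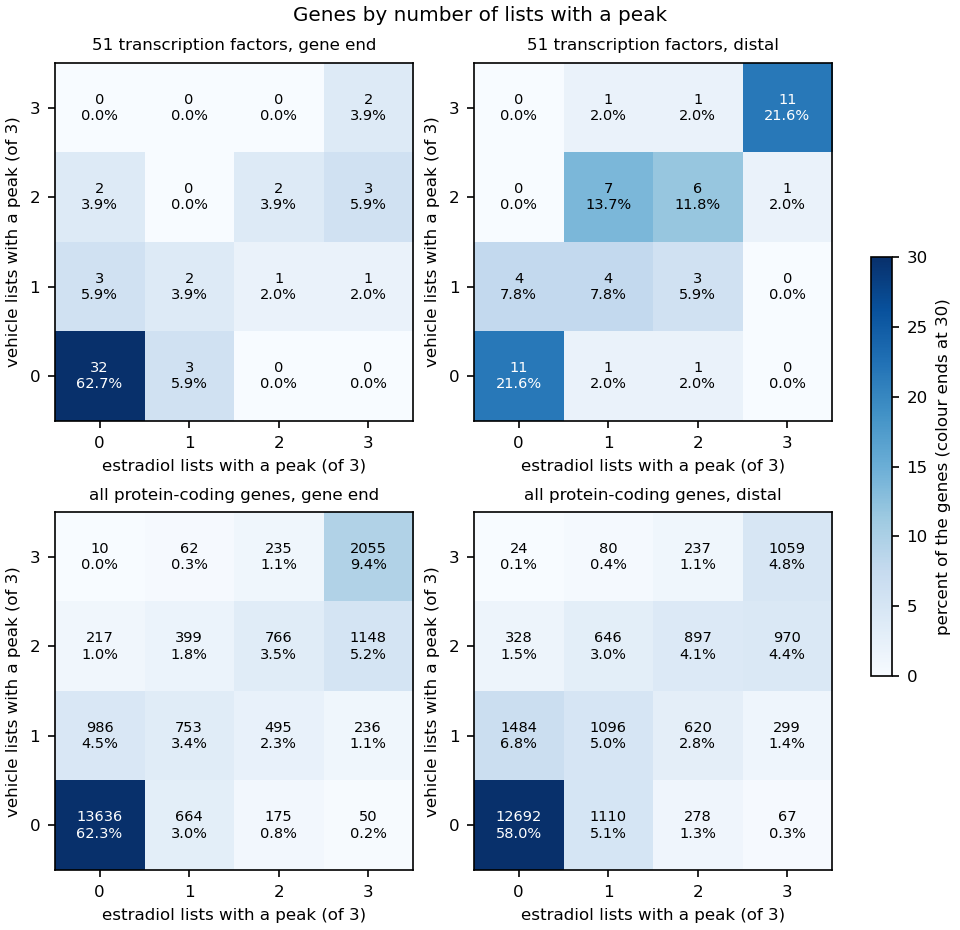
Number and percent of genes by how many of the 3 estradiol lists (horizontal) and 3 vehicle lists (vertical) hold a peak, for the 51 transcription factors (top) and all protein-coding genes (bottom), gene-end peaks left and distal peaks right. Among the 51 the distal counts are 11 genes with a peak in no list and 11 with a peak in all 6, and the corners of 3 lists against 0 are empty.

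Regions found in all 3 estradiol libraries and no vehicle library lay in 2 members, Myt1l and Sox5 (1.09% of all genes), 1 region each (0.737% of all regions). Both lay inside the gene, and 0 such regions lay outside a member or at its end. The Myt1l region at 29831467 to 29831644 on chromosome 12, 296 kb from the nearest listed start, had 5, 5 and 8 fragments in estradiol replicates 1, 2 and 3. Its −log10 q of 3.34, 3.71 and 6.07 ranked at the 32.2, 32.9 and 67.4 percentile of those lists. The Sox5 region at 144695879 to 144695967 on chromosome 6 had 4, 4 and 7 fragments and −log10 q of 2.65, 2.73 and 5.39. The smallest values of both were at or 1 fragment above the smallest called summit. Per Mb of territory there were 0.141 such regions at the members and 0.128 at all genes. With −log10 q of at least 3, 1 member had such a region, and with peaks that had to cover 50% of a region, or with lists of equal length, 0 did. No member region was found in all 3 vehicle libraries and no estradiol library (0.201% of all genes, 0.112% of all regions). That count was 4 without vehicle replicate 1, 3 without estradiol replicate 3 and 1 without vehicle replicate 3. The count for estradiol was 6 without estradiol replicate 1, 5 without estradiol replicate 3, 3 without vehicle replicate 3 and 1 without estradiol replicate 2. With a library left out the rule asks for fewer lists, and the share of all genes under it is not given.

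A looser rule, 2 or 3 estradiol lists against 0 vehicle lists, was met at 9 members (5.05% of all genes) by 10 of 258 regions (3.71% of all 39374 regions). Per Mb this was 0.704 at the members and 0.647 at all genes. Beside the estradiol-only regions, the one with the highest median −log10 q over its libraries lay 61.3 kb from Sox4 (chromosome 13, 29015031 to 29015170), within 1 kb of the lncRNA gene A330102I10Rik, with 7 and 8 fragments in estradiol replicates 2 and 3. Tcf4 had such regions 58.3 kb away (5 and 5 fragments) and inside the gene (4 and 6). Bcl11b (7 and 5), Foxp1 (5 and 4) and Tshz2 (4 and 4) had theirs inside the gene, as did Nfic and Zfhx3. In the other direction, 5 members had a region in 2 vehicle and no estradiol libraries (4.11% of all genes), with 5 regions (2.6% of all regions), or 0.352 per Mb against 0.494. They were Foxp4, 2.41 kb from the gene (6 and 7 fragments), Mef2d inside the gene (6 and 7), Meis1 at the gene end (6 and 5), Tshz1 39.9 kb away (5 and 4), and Zfhx3 inside the gene (4 and 5). No region of either kind exceeded 8 fragments.

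**Figure D5:**
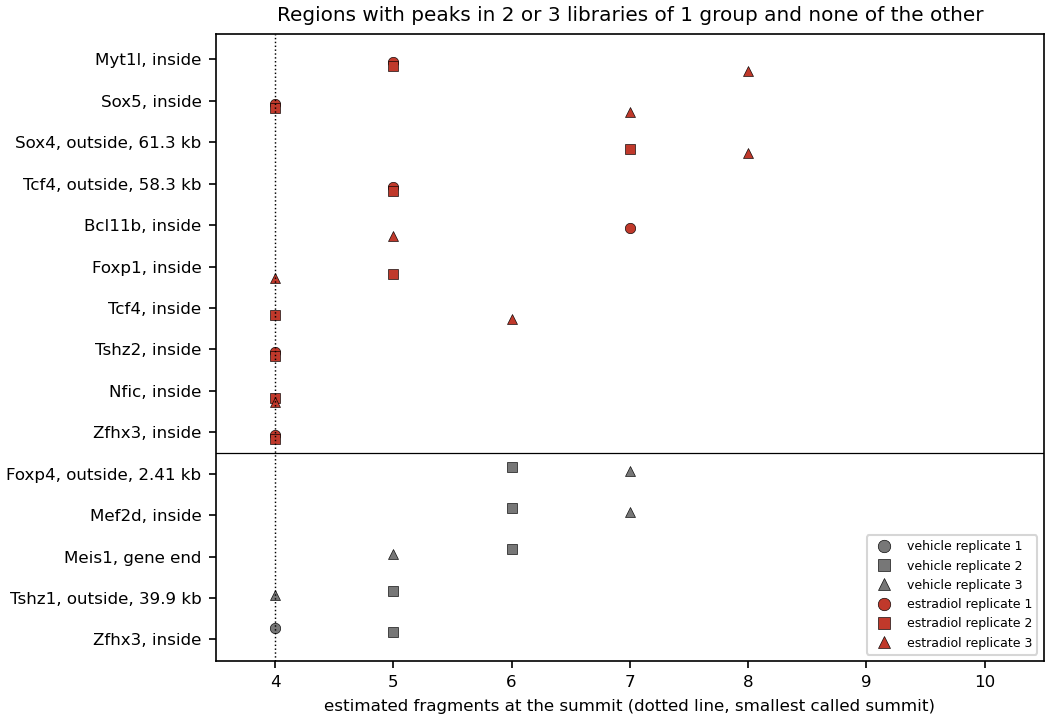
Estimated summit fragments of the 15 member regions with peaks in 2 or 3 libraries of 1 group and none of the other (above the line, estradiol; below it, vehicle); labels as in the plot of regions held by all 6 libraries. All values lie between 4 and 8, where 4 is the smallest called summit.

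Of the 258 member regions, 159 were found in 1 library (58.9% of all regions) and 11 in all 6 (7.27% of all regions). Those shares include regions assigned to no gene. Over regions assigned to any protein-coding gene they were 55.5% and 8.77%, against 61.6% and 4.26% for the members. The shares differed by class. Of 233 distal member regions, 147 were found in 1 library (63.1%) and 9 in all 6 (3.86%), against 65.8% and 3.19% of distal regions over all genes. Of 25 gene-end member regions, 12 were found in 1 library (48.0%) and 2 in all 6 (8.0%), against 29.5% and 22.8%. Of the 9 distal regions in all 6 libraries, 4 lay within 1 kb of a non-coding gene and 2 within 1 kb of a listed start of the member itself. A single-library member region had a median of 5 fragments. Among 45 paralogs of the members outside the list, 6 had gene-end peaks in all 6 libraries, 3 had distal peaks in all 6, and 13 had no peak. None of the paralogs had an estradiol-only region, and 3 had a region in 2 or 3 estradiol and no vehicle libraries. These shares describe the lists and were not tested.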

How the data were processed

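MACS2, deepTools, SAMtools, Picard, Bowtie2 and cutadapt are listed in the submitters' processing notes with build mm10, but with neither version nor role. The peak names of each deposited list carry 1 library and a q of 0.01. No source used here says whether a control library entered. Per the file's columns, the deposited values are an integer score, a fold enrichment ratio at the summit, −log10 p-values and −log10 q-values, all the authors' own. They were used to describe and rank peaks within a list.

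Summit fragments were the whole number whose Poisson upper tail gave the deposited −log10 p, assuming a fold made with a pseudocount of 1. In every list 100% of peaks were matched to within 0.0002. Peaks touching by 1 bp were merged into 39374 regions. Genes were RefSeq spans (GRCm38.p6). These give no strand or exons, so exons and introns were not analysed here; strand and start sites came from the promoter table. Territory is the span plus its share of each flanking gap, up to 100 kb. Intervals were placed with Python 3.11.15, numpy 2.4.6 and pandas 2.3.3, and the placement and fragment estimates were tested on simulated data.

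The members and lists were chosen with earlier results of these data known, so permutation tests planned for sums over the members are given as differences without p. Named regions were those of the NFI genes, regions in 3 libraries of 1 group and 0 of the other, up to 8 held by all 6 libraries (gene-end and distal apart), the 8 strongest with 2 or 3 estradiol and 0 vehicle libraries, the 5 strongest of the reverse, and members with no peak. Others named here were chosen after their values were seen, as were the motifs. No column of another series was used.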

Additional observations from a re-analysis of the deposited data

How the results depend on the processing

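The members' share of all peaks differed by -0.0123 percentage points (estradiol minus vehicle) with lists of equal length (5421 peaks) and by -0.0169 to 0.0597 over the left-out libraries, below 0 when vehicle replicate 1 or estradiol replicate 3 was left out (-0.00353 for the latter). The difference in members with a gene-end peak was -2.83 to 2.67 over the left-out libraries and -2 in replicate 3 alone. That in members with a distal peak was 1.33 at −log10 q of at least 3 and -8.33 to 2.67 over the left-out libraries. The difference in the share of distal peaks stayed below 0 in each of 15 settings. Those settings reuse the same 6 libraries, whose group values overlapped, so they are not independent of each other. It was -0.06955 with lists of equal length, -0.00986 without vehicle replicate 1 and -0.0041 with listed starts counted as gene ends. No cause of these differences was tested.

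Members with an estradiol-only region numbered 0 with lists of equal length, 1 at −log10 q of at least 3, and 0 with 50% cover. They numbered 9 when 2 of 3 libraries sufficed (5.05% of all genes). The count was 6 in replicates 1 and 2, 28 in replicate 3, and 1 to 6 over the left-out libraries. Members with a vehicle-only region numbered 1 with 50% cover and 5 when 2 of 3 sufficed (4.11% of all genes). That count was 4 in replicates 1 and 2, 33 in replicate 3, and 0 to 4 over the left-out libraries. With fewer libraries each rule here asks for fewer lists, in replicate 3 for 1 list against 1. Shares of all genes under those settings are not given, so these counts are not read as results about the members. Members with gene-end peaks in all libraries used numbered 0 with lists of equal length, 1 at −log10 q of at least 3, 7 in replicate 3, 4 with listed starts counted as gene ends (added after seeing the data) and 2 to 5 over the left-out libraries, 5 being without vehicle replicate 1. Those with distal peaks in all libraries used numbered 7 with lists of equal length, 8 at −log10 q of at least 3 and 9 within 50 kb. They numbered 29 in replicate 3 and 11 to 12 over the left-out libraries.

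Under a replicate block (same-numbered libraries set against each other, 2 of 3 having to differ and the last not to oppose them), 10 members had an estradiol region (6.91% of all genes) and 7 a vehicle region (4.82% of all genes). The 4 mean differences are the same as without it (0.0235, 0.667, -2.33 and -0.0275), since every number has 1 library a group. Deviations of same-numbered libraries from their group means correlated across 13494 genes by 0.10, 0.0363 and 0.0828, and others by -0.0782 to -0.00690. Each library correlated best, though weakly, with the one of its own number. The main counts did not pair the libraries, and whether same-numbered libraries share a batch was not tested. Depth limits every list: a summit of under 4 fragments was not called.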
